A study of Homo sapiens with 12 samples.

Results

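The genes described here are 10 kinases, phosphatases and accessory proteins of the DNA damage checkpoint: ATR, ATM, CHEK1, CHEK2, WEE1, CDC25A, CDC25B, CDC25C, RAD1 and RAD17. They were taken by name. Their members on the array are the 22 probe sets whose single gene in the platform annotation is one of the 10, out of 19064 probe sets with a single gene and 22277 in all. The genes are 10 of 11963 that such probe sets cover. The study used the human breast cancer line MDA-MB-231, which lacks the hormone receptors, and hybridised RNA from immunoprecipitates to Affymetrix arrays. One antibody was directed against eIF4E, the protein that binds the cap at the 5′ end of messenger RNAs. The other was control IgG, which gives the background of the precipitation. Each antibody was used on lysates of irradiated and of untreated cells, with 3 arrays in each of the 4 groups and 12 in all. The groups were eIF4E precipitates of irradiated cells, eIF4E precipitates of untreated cells, IgG precipitates of irradiated cells and IgG precipitates of untreated cells. Irradiated cells had received 2 Gy of X-rays at 2.3 Gy per minute and were taken 6 h later. All 4 groups were the same line, grown in the same medium with serum, and no total RNA of the lysates was analysed here. The design text calls the replicates biological, and nothing in the labels says how the cultures were separated.

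In the checkpoint, ATM responds mainly to DNA double-strand breaks and ATR to single-stranded DNA at stalled or damaged replication forks. RAD17 loads the ring-shaped clamp that contains RAD1, RAD9A and HUS1 onto DNA, which helps to activate ATR. ATM and ATR phosphorylate the effector kinases CHEK2 and CHEK1, and these restrain the CDC25 phosphatases. CDC25 proteins remove the inhibitory phosphate that WEE1 places on cyclin-dependent kinases, so WEE1 and CDC25 set the timing of entry into the next cell-cycle phase.

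The cap sits on the first transcribed base, so the bases around the annotated transcription start are given for the 4 member genes with 1 start in the RefSeq promoter table of GRCh38.p14. In ATR and CDC25A at least 1 probe set was lower with eIF4E, and in CHEK2 and RAD1 at least 1 was higher. The 30 bases run 5′ to 3′ on the minus strand, 10 before the start and 20 from it, and capitals mark the first 5 bases of the annotated transcript. The positions are chr3:142578714-142578743 for ATR, chr22:28741801-28741830 for CHEK2, chr3:48188398-48188427 for CDC25A and chr5:34915485-34915514 for RAD1.
ATR: ccgcgttggcGTGGTtgactagtgcctcgc
CHEK2: gtttagcgccACTCTgctggctgaggctgc
CDC25A: agctggccccACTGAgccgctattaccgcg
RAD1: gactggcttcACTTCctccgcggttcctcg
A start with a C followed by 4 pyrimidines, the form known from terminal oligopyrimidine messenger RNAs, was found at 1 of 20 starts listed for 9 of the 10 genes, an ATM start. Over all genes it was found at 1429 of 35116 starts, or 4.07%. The start used in these cells was not measured.

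Signals are relative within an array, since the deposited values of every array had the same trimmed mean of 500.2. For 1 probe set they can be compared between arrays as relative signals only, and they cannot be compared between probe sets. Probe sets of VIM, CAV1, AXL and MSN, and 6 of 8 of CD44, lay at or above the 71.8th percentile of all single-gene probe sets, genes high in mesenchymal-like breast lines, while all probe sets of ESR1, PGR and CDH1 and 1 of 2 of ERBB3 lay below the filter on dim probe sets. The leukocyte genes PTPRC and CD3E and the liver genes ALB and APOA1 lay below it too. The antibodies differed in control probe sets: the Alu repeat probe set read 13480 to 18480 on eIF4E arrays and 36880 to 53250 on IgG arrays. The 3′ actin probe set over the 5′ one gave a ratio of 1.33 to 1.53 on eIF4E arrays and 2.96 to 5.38 on IgG arrays. Both measures follow the antibody without overlap, so they cannot be told apart from it in any eIF4E against IgG comparison below. Replicate 1 of every group stood apart in the ratio of 2 hybridisation controls, bioB over bioC, at 0.369 to 0.459 in replicate 1 and 0.0351 to 0.0899 in the others. Genes of liver, blood, heart and brain that a breast line should not express served as a background level. The 75th percentile of their 17 probe sets was 12.4 to 31.2 on eIF4E arrays and 15.9 to 40.6 on IgG arrays.

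Over both treatments, the kinase genes ATR and ATM, 1 of 2 probe sets of WEE1 and of CDC25A, and CDC25B were lower with eIF4E than with IgG. CHEK2, 2 of 3 probe sets of RAD1, 2 of 3 of RAD17 and 1 of CDC25C were higher. Neither CHEK1 probe set passed the threshold. Of 22 probe sets, 21 passed a filter that kept those above the 40th percentile of mean log2 signal over all 12 arrays (a signal of 39.5). The exception was CDC25C 216914_at, with 8.78 to 54.4 on the eIF4E arrays and 2.75 to 65.7 on the IgG arrays. In limma on log2(signal + 16), adjusted over 11438 probe sets at a threshold of 0.05, 14 of 21 passed, 6 higher and 8 lower. That share, 66.7%, stood beside 66.4% of all probe sets tested, of which 29.8% were higher and 36.6% lower, and is a share near that background. The members' median difference was -0.027 and that of all probe sets -0.072, on the log2 scale. With each array centred on its median, all differences moved up by 0.16 at the median, and 8 members were higher and 6 lower. Of all 11438 probe sets 4115 were then higher and 3420 lower. The 6 eIF4E arrays did not overlap the 6 IgG arrays in 11 of 21 probe sets, against 45.7% of all. These differences compare relative signals between precipitates. They give neither the amount of an RNA brought down with each antibody nor its amount in the cells. Lower with eIF4E therefore means a smaller relative signal than on the IgG arrays. Each lysate is a bulk sample, so differences between cells cannot be read.

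**Figure D1:**
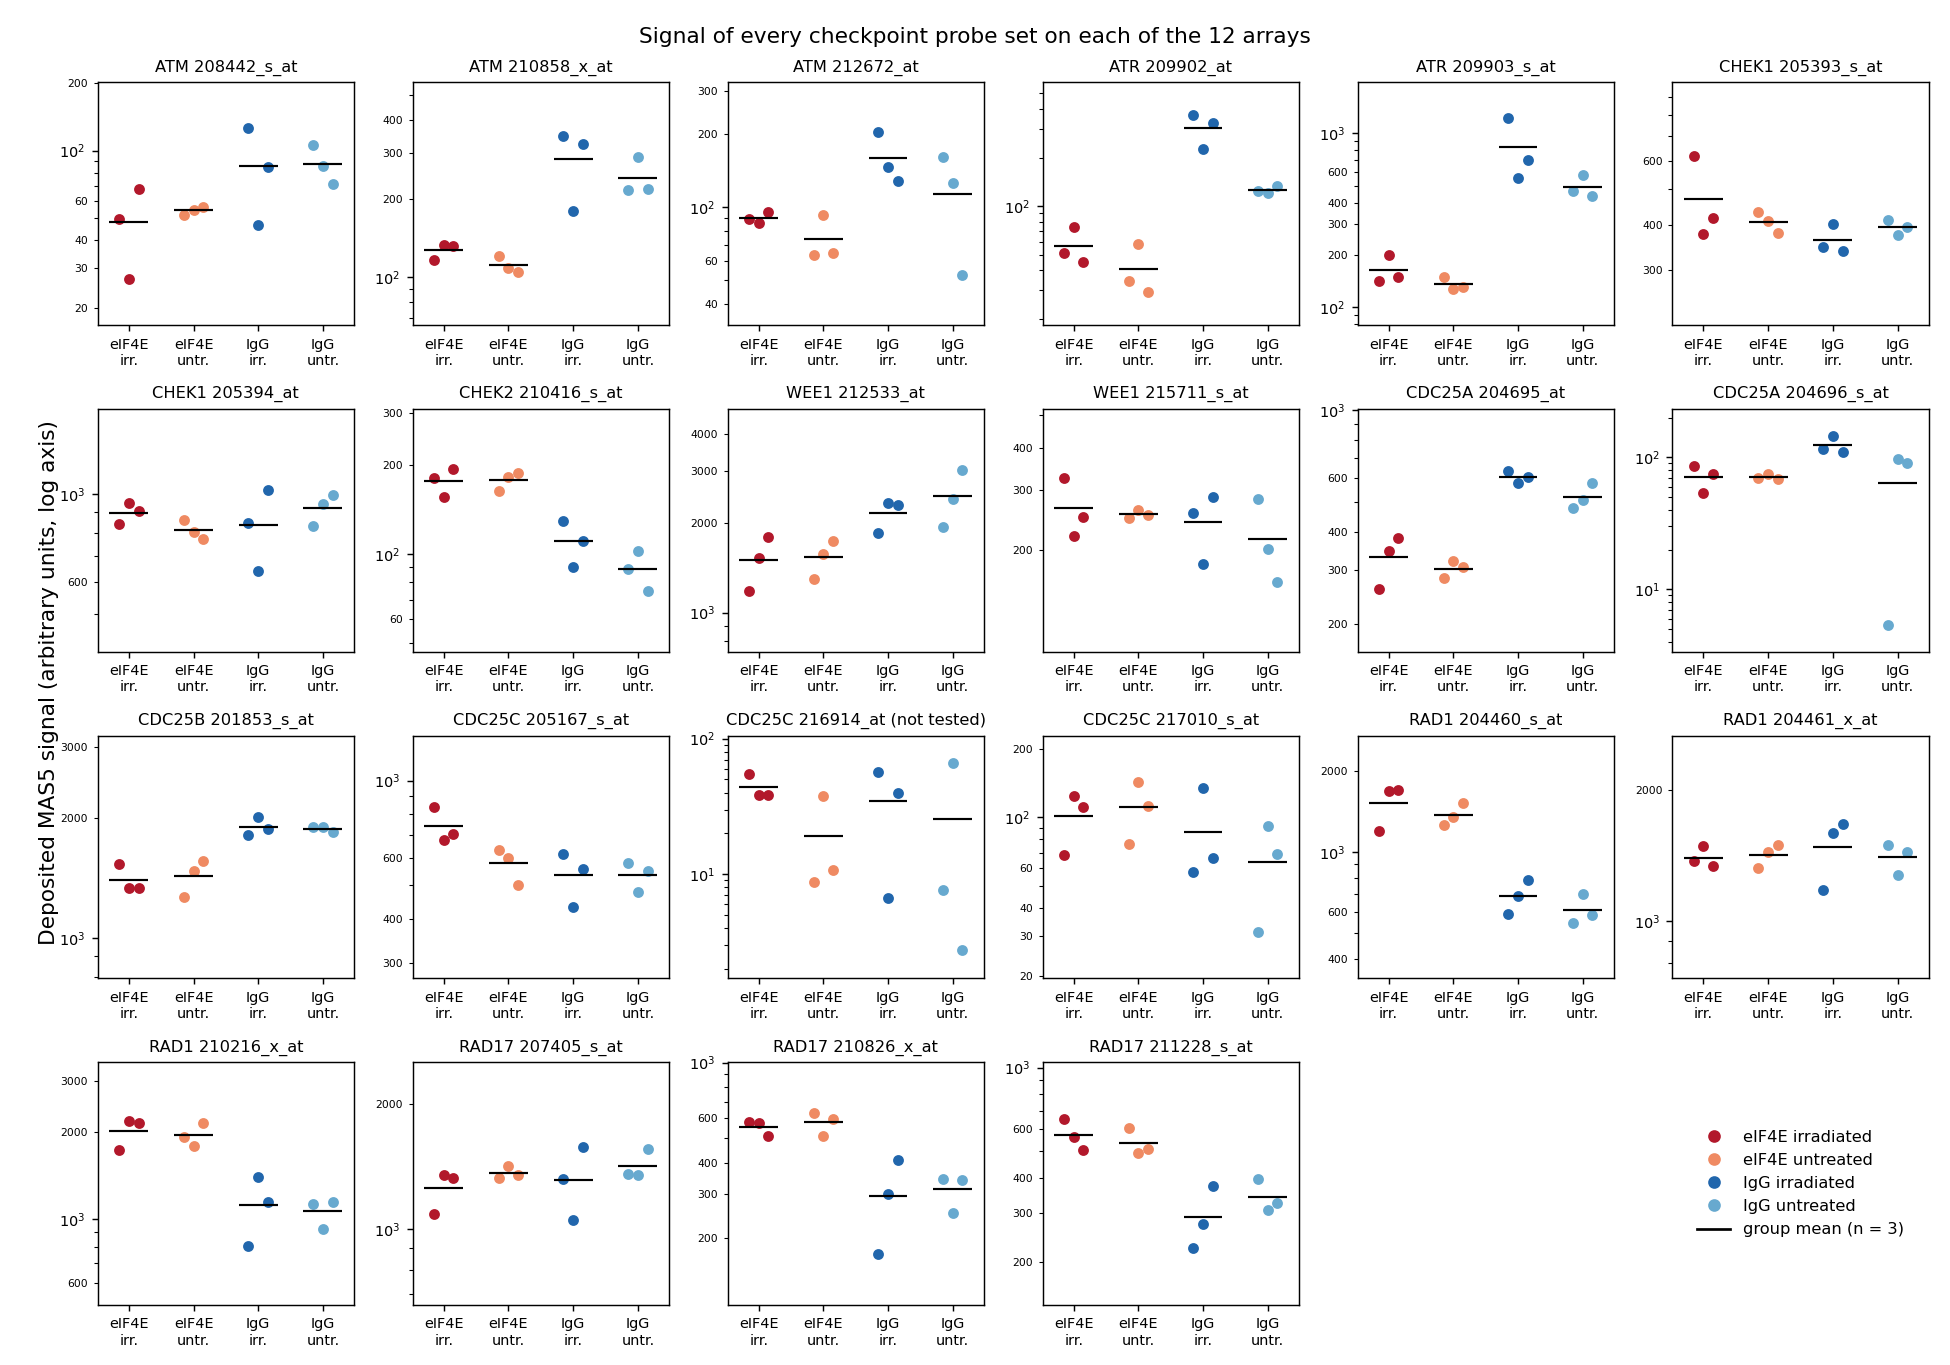
Deposited signal (arbitrary units, log axis, each panel with its own range) of each of the 22 checkpoint probe sets on the 12 arrays, with points for arrays and lines for group means of 3. Both ATR panels and CDC25A 204695_at show all 6 eIF4E arrays under all 6 IgG arrays, CHEK2 and RAD1 204460_s_at show them above, and CHEK1 205394_at shows all 4 groups mixed.

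ATR, the kinase that answers to single-stranded DNA, showed the largest differences among the members. Its probe set 209903_s_at had signals of 142, 199.8 and 148 on the irradiated eIF4E arrays and 149.6, 127 and 131 on the untreated eIF4E arrays, against 1229, 557 and 706 on the irradiated IgG arrays and 469, 575 and 434 on the untreated IgG arrays. All 6 eIF4E arrays lay below all 6 IgG arrays, and irradiated and untreated eIF4E arrays overlapped. Group means were 164 ± 31.6 and 136 ± 12.2 with eIF4E in irradiated and untreated cells, and 831 ± 353 and 492 ± 73.4 with IgG in irradiated and untreated cells (SD, n = 3 each). The eIF4E minus IgG difference was -1.96 ± 0.17 on the log2 scale (SE, limma adjusted p = 3.33e-08). The second ATR probe set, 209902_at, had signals of 50.8, 74.4 and 45.1 on the irradiated eIF4E arrays and 34.1, 58.1 and 29.3 on the untreated eIF4E arrays, against 366, 225 and 326 on the irradiated IgG arrays and 123, 120.3 and 134 on the untreated IgG arrays. Again no eIF4E array reached an IgG array, and the irradiated IgG arrays stood above the untreated ones. Its difference was -1.75 ± 0.19 (limma adjusted p = 4.54e-07). Of its 6 eIF4E signals 1, the 29.3 of untreated replicate 3, lay at or below the background level of its own array, which was 31.2. At signals as low as these the difference on the log2(signal + 16) scale understates a fold.

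ATM, the kinase that answers to double-strand breaks, was lower with eIF4E by all 3 of its probe sets, and by 1 of them on every array. Probe set 210858_x_at had signals of 116, 133 and 131 on the irradiated eIF4E arrays and 121, 109 and 105 on the untreated eIF4E arrays, against 349.6, 179 and 326 on the irradiated IgG arrays and 215, 289.9 and 217 on the untreated IgG arrays. No eIF4E array overlapped an IgG array. The difference was -1.01 ± 0.16 (limma adjusted p = 3.9e-05). The suffix _x_at marks probes that may bind other transcripts. Probe set 208442_s_at had signals of 26.9 to 67.5 on the eIF4E arrays and 46.5 to 126 on the IgG arrays, with the groups overlapping, and a difference of -0.59 ± 0.24 (limma adjusted p = 0.0384). Probe set 212672_at had 63.7 to 95.0 on the eIF4E arrays and 52.5 to 203 on the IgG arrays, also overlapping, with -0.56 ± 0.22 (limma adjusted p = 0.0323). These 2 calls depended on scaling and on single arrays. They missed after quantile normalization (limma adjusted p = 0.0852 for 208442_s_at and 0.0886 for 212672_at) and after median centring (0.132 for 208442_s_at and 0.119 for 212672_at). The call of 208442_s_at was lost in 9 of 12 omissions of 1 array (adjusted p 0.0519 to 0.108), all but eIF4E irradiated 3, IgG irradiated 2 and IgG untreated 3, and that of 212672_at in 7 of 12 (0.0531 to 0.092), namely eIF4E irradiated 1 and 2, eIF4E untreated 1 and 3, IgG irradiated 1 and IgG untreated 1 and 2.

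Of the effector kinases, CHEK2 was higher with eIF4E, while CHEK1 missed the threshold by both of its probe sets. Their difference was not tested. CHEK2, the kinase downstream of ATM, by its probe set 210416_s_at had signals of 181, 156 and 193 on the irradiated eIF4E arrays and 163, 182 and 188 on the untreated eIF4E arrays, against 129, 90.4 and 110.4 on the irradiated IgG arrays and 88.5, 102 and 74.7 on the untreated IgG arrays. Every eIF4E array lay above every IgG array, with irradiated and untreated arrays overlapping for either antibody. The difference was 0.76 ± 0.15 (limma adjusted p = 0.000257). CHEK2 has pseudogene copies in the genome, and which transcripts these probes bind was not tested. CHEK1, the kinase downstream of ATR, had signals of 772 to 950.3 on the eIF4E arrays and 642 to 1024 on the IgG arrays by probe set 205394_at, and of 377 to 616 on the eIF4E arrays and 339 to 412 on the IgG arrays by 205393_s_at. Both pairs of ranges overlapped. The differences were -0.027 ± 0.12 and 0.19 ± 0.13, with 95% intervals of -0.27 to 0.22 and -0.075 to 0.46 and limma adjusted p of 0.852 and 0.192. The second probe set passed the threshold when arrays were quantile-normalized (0.35, adjusted p = 0.0256) or centred on their medians (0.35, adjusted p = 0.0226).

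WEE1, which inhibits cyclin-dependent kinases by phosphorylation, gave a different result with each of its 2 probe sets. Probe set 212533_at had signals of 1183, 1529 and 1796 on the irradiated eIF4E arrays and 1299, 1572 and 1745 on the untreated eIF4E arrays, against 1852, 2337 and 2311 on the irradiated IgG arrays and 1942, 2416 and 3032 on the untreated IgG arrays. The highest eIF4E array lay just below the lowest IgG array. The difference was -0.60 ± 0.13 (limma adjusted p = 0.000785). Probe set 215711_s_at had 220.3 to 326 on the eIF4E arrays and 160.2 to 286 on the IgG arrays, overlapping throughout, with 0.20 ± 0.16 (limma adjusted p = 0.279, 95% interval -0.13 to 0.53).

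Of the CDC25 phosphatases, CDC25A and CDC25B were lower with eIF4E and CDC25C was not. CDC25A acts at entry into S phase as well as into mitosis. Its probe set 204695_at had signals of 261, 347 and 384 on the irradiated eIF4E arrays and 283, 322 and 307 on the untreated eIF4E arrays, against 631, 579.8 and 605 on the irradiated IgG arrays and 478, 508 and 579 on the untreated IgG arrays. All eIF4E arrays lay below all IgG arrays. The difference was -0.80 ± 0.12 (limma adjusted p = 1.23e-05). Its other probe set, 204696_s_at, had 53.3 to 86.4 on the eIF4E arrays, 115, 146 and 110.3 on the irradiated IgG arrays and 5.39, 96.6 and 90.1 on the untreated IgG arrays. Here untreated IgG replicate 1 lies at background level and apart from the other 11 arrays. With it the difference was -0.12 ± 0.33 (limma adjusted p = 0.772), and without it -0.51 (adjusted p = 0.0213). CDC25B, a phosphatase that helps to start mitosis, by its probe set 201853_s_at had signals of 1533, 1330 and 1329.8 on the irradiated eIF4E arrays and 1268, 1466 and 1561 on the untreated eIF4E arrays, against 1804, 2005 and 1875 on the irradiated IgG arrays and 1889.7, 1895 and 1839 on the untreated IgG arrays. The antibodies did not overlap, and the difference of -0.41 ± 0.093 was the smallest of the 8 that were lower (limma adjusted p = 0.000843).

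CDC25C, which activates the mitotic cyclin-dependent kinase, had 3 probe sets. Probe set 205167_s_at had signals of 841, 677 and 705 on the irradiated eIF4E arrays and 634, 598 and 503 on the untreated eIF4E arrays, against 615, 434 and 557 on the irradiated IgG arrays and 581, 479 and 549.9 on the untreated IgG arrays. The irradiated eIF4E arrays were the highest group, and the untreated eIF4E arrays overlapped both IgG groups. The difference over both treatments was 0.28 ± 0.12 (limma adjusted p = 0.0438). That call was lost in 7 of 12 omissions of 1 array (adjusted p 0.0585 to 0.11), namely eIF4E irradiated 1 and 3, eIF4E untreated 1 and 2, IgG irradiated 2 and IgG untreated 2 and 3. Probe set 217010_s_at had 68.0 to 143 on the eIF4E arrays and 31.4 to 135 on the IgG arrays and 0.48 ± 0.25 (limma adjusted p = 0.109). It passed without IgG irradiated replicate 2 (0.64, adjusted p = 0.0358) and after either rescaling of the arrays. The dim 216914_at, fitted with no filter, had 0.19 ± 0.39 (adjusted p = 0.74).

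RAD1 and RAD17, the clamp subunit and the clamp loader, held the largest positive differences among the members, and their probe sets disagreed. RAD1 204460_s_at had signals of 1199, 1683 and 1695 on the irradiated eIF4E arrays and 1264, 1346 and 1520.2 on the untreated eIF4E arrays, against 586, 685 and 784 on the irradiated IgG arrays and 543, 698 and 583 on the untreated IgG arrays. The lowest eIF4E array lay well above the highest IgG array. The difference was 1.15 ± 0.12 (limma adjusted p = 3.2e-07). RAD1 210216_x_at had 1729 to 2185 on the eIF4E arrays and 805 to 1393 on the IgG arrays, with no overlap, and 0.87 ± 0.13 (limma adjusted p = 1.37e-05). RAD1 204461_x_at had signals of 1379, 1488 and 1336 on the irradiated eIF4E arrays and 1322, 1446 and 1495 on the untreated eIF4E arrays, against 1183, 1594 and 1672 on the irradiated IgG arrays and 1501, 1275 and 1443 on the untreated IgG arrays. These 4 groups were mixed, with a difference of -0.025 ± 0.11 (limma adjusted p = 0.846, 95% interval -0.25 to 0.20).

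RAD17 210826_x_at had signals of 582, 574 and 513 on the irradiated eIF4E arrays and 628, 509 and 597 on the untreated eIF4E arrays, against 174, 301 and 409.9 on the irradiated IgG arrays and 344, 253 and 341 on the untreated IgG arrays. All eIF4E arrays lay above all IgG arrays. The difference was 0.91 ± 0.16 (limma adjusted p = 0.000121). RAD17 211228_s_at had 491 to 653 on the eIF4E arrays and 224 to 396 on the IgG arrays, without overlap, and 0.79 ± 0.13 (limma adjusted p = 6.42e-05). RAD17 207405_s_at, in contrast, had 1090.3 to 1416 on the eIF4E arrays and 1054 to 1575 on the IgG arrays, overlapping, and -0.055 ± 0.11 (limma adjusted p = 0.679, 95% interval -0.29 to 0.18).

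Disagreement between probe sets of a gene was tested as the difference of their eIF4E minus IgG differences, in limma over 5361 pairs of tested probe sets of the same gene, a test added after the values were seen. Past the threshold were 5 of 14 member pairs, beside 51.1% of all pairs. RAD1 204460_s_at exceeded 204461_x_at by 1.17 ± 0.14 (limma adjusted p = 4.64e-05), and 204461_x_at minus 210216_x_at was -0.90 ± 0.12 (limma adjusted p = 8.27e-05). RAD17 207405_s_at minus 210826_x_at was -0.96 ± 0.19 (limma adjusted p = 0.00136), and minus 211228_s_at -0.85 ± 0.16 (limma adjusted p = 0.00114). For WEE1, 212533_at minus 215711_s_at was -0.80 ± 0.26 (limma adjusted p = 0.0225). The ATR pair differed by 0.20 ± 0.17 (limma adjusted p = 0.349) and the first and last RAD1 probe sets by 0.27 ± 0.15 (limma adjusted p = 0.141). No member gene had probe sets called in opposite directions, which 250 of 2513 genes with several tested probe sets had, or 9.95%. The member genes with several, all but CHEK2 and CDC25B, are too few to be set apart from that share. Where on each transcript these probe sets lie was not analysed here.

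Within each treatment, every member probe set called in both irradiated and untreated cells had the same direction in both. With 0 of 11438 probe sets past the threshold for the difference of the irradiation effects, this does not set the members apart. How often the direction was the same over all probe sets was not counted. In irradiated cells 12 of 21 probe sets passed, 6 higher and 6 lower, beside 54.6% of all probe sets tested (24.4% higher and 30.3% lower). In untreated cells 11 of 21 passed, 5 higher and 6 lower, beside 54.2% (24.4% higher and 29.8% lower). The 3 eIF4E arrays did not overlap the 3 IgG arrays in 14 of 21 probe sets in irradiated cells, beside 59% of all, and in 12 of 21 in untreated cells, beside 62.8%. For ATR 209903_s_at the difference was -2.17 ± 0.24 in irradiated cells (limma adjusted p = 1.56e-06) and -1.74 ± 0.24 in untreated cells (limma adjusted p = 1.4e-05). For RAD1 204460_s_at it was 1.13 ± 0.17 in irradiated cells (limma adjusted p = 3.59e-05) and 1.16 ± 0.17 in untreated cells (limma adjusted p = 2.69e-05). CDC25C 205167_s_at passed in irradiated cells, at 0.47 ± 0.17 (limma adjusted p = 0.0267), and missed in untreated cells, at 0.10 ± 0.17 (limma adjusted p = 0.632). The difference between those 2 values, tested as the difference of the irradiation effects, missed the threshold. All ATM probe sets but 210858_x_at missed the threshold in either treatment alone.

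Of the calls within 1 treatment, those of 5 probe sets depended on single arrays. In irradiated cells CHEK2 missed without eIF4E irradiated replicate 1 (adjusted p = 0.0539) or 3 (0.0745) or IgG irradiated replicate 2 (0.0712). WEE1 212533_at missed there without eIF4E irradiated replicate 1 (0.126) or IgG irradiated replicate 2 (0.0717) or 3 (0.0715), and CDC25C 205167_s_at without eIF4E irradiated replicate 1 (0.109) or IgG irradiated replicate 2 (0.121), in the same limma fit. In untreated cells CDC25B missed without eIF4E untreated replicate 1 (0.0964) or IgG untreated replicate 2 (0.0505), and RAD17 211228_s_at without eIF4E untreated replicate 1 (0.054). After median centring CDC25B missed in irradiated (0.126) and in untreated cells (0.097), and WEE1 212533_at in irradiated cells (0.119).

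**Figure D2:**
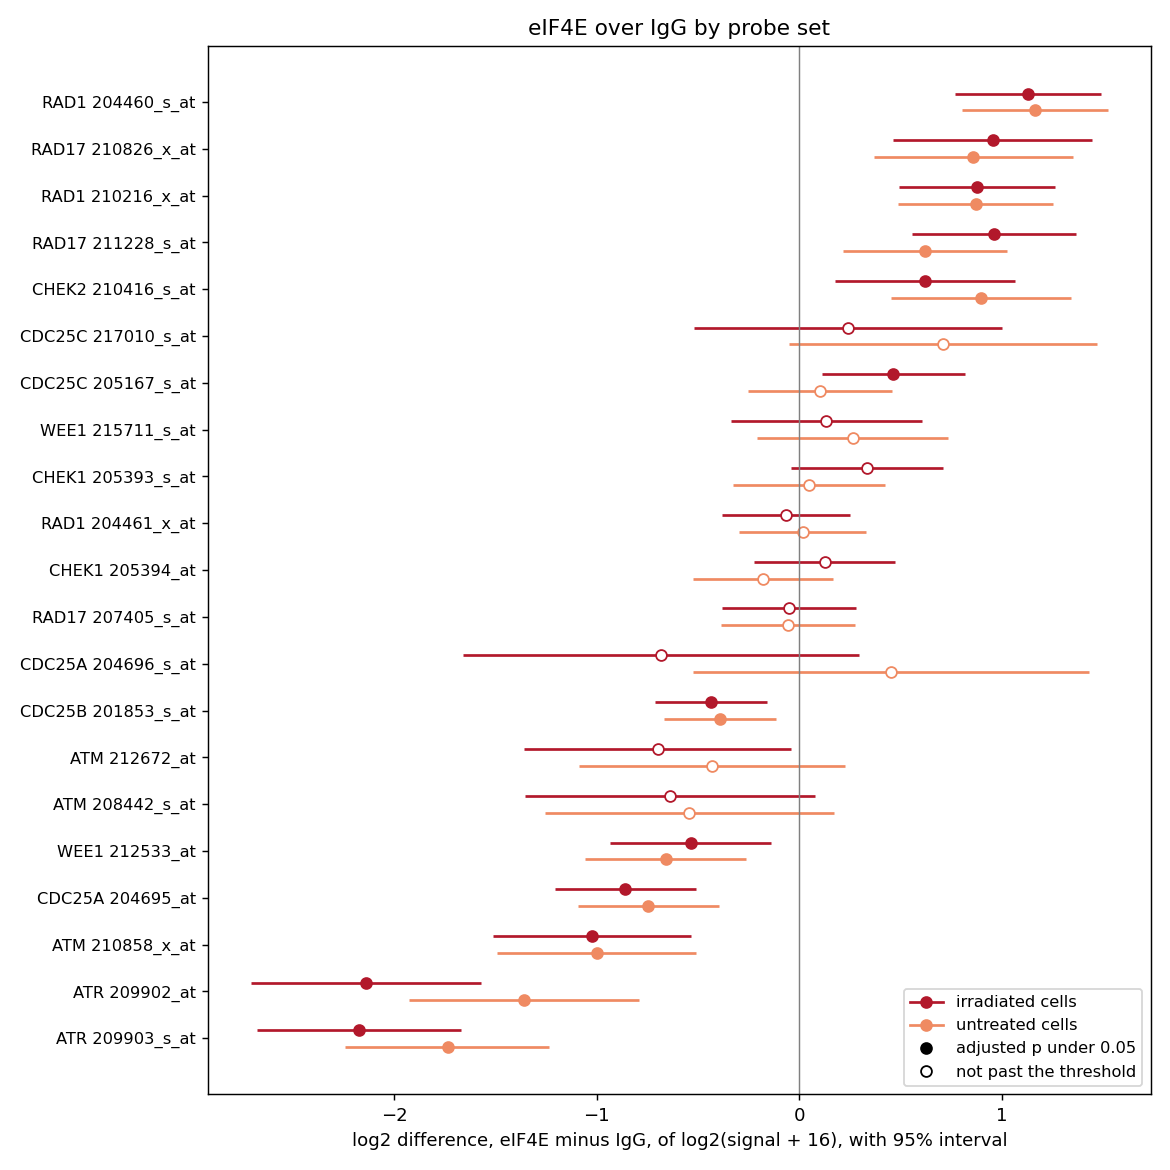
Difference eIF4E minus IgG of log2(signal + 16) for the 21 tested checkpoint probe sets, in irradiated cells and in untreated cells, with 95% intervals; filled points have a limma adjusted p under 0.05. ATR lies at -2.17 and -1.74 by 209903_s_at and RAD1 at 1.13 and 1.16 by 204460_s_at, in irradiated and in untreated cells.

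Irradiation changed no member past the threshold in either precipitate. Within eIF4E precipitates 0 of 21 probe sets passed in limma, beside 0% of all probe sets tested. At an unadjusted p under 0.05 there were 0 members and 152 of 11438 probe sets. Within IgG precipitates 0 members passed, beside 0% of all, with 3 members and 850 probe sets at an unadjusted p under 0.05. The comparisons of irradiated with untreated cells within an antibody use the same arrays as the antibody comparisons.

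In eIF4E precipitates the 95% intervals bound the irradiation effect on the relative signals of these probe sets. That of CHEK1 205394_at was -0.20 to 0.49 on the log2 scale, that of WEE1 212533_at -0.44 to 0.35, that of CDC25B -0.31 to 0.25 and that of RAD1 204460_s_at -0.23 to 0.49. Wider ones belonged to ATR, at -0.19 to 0.95 for 209902_at and -0.27 to 0.73 for 209903_s_at. ATM 208442_s_at, at -0.90 to 0.53, and CDC25A 204696_s_at, at -0.98 to 0.97, had wide ones too. The arrays of irradiated and untreated cells did not overlap in 1 of 21 probe sets, beside 9.5% of all. This was CDC25C 205167_s_at, named after its values were seen, which had 841, 677 and 705 in irradiated cells and 634, 598 and 503 in untreated cells. Its difference was 0.35 ± 0.17 (limma adjusted p = 1, 95% interval -0.0050 to 0.70).

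In IgG precipitates the 3 members under an unadjusted 0.05 were both ATR probe sets and CDC25A 204696_s_at. ATR 209902_at had 366, 225 and 326 in irradiated cells and 123, 120.3 and 134 in untreated cells, with no overlap. The difference was 1.16 ± 0.27 (limma adjusted p = 0.444, 95% interval 0.59 to 1.72). ATR 209903_s_at, with 1229, 557 and 706 in irradiated and 469, 575 and 434 in untreated cells, overlapped and differed by 0.67 ± 0.24 (limma adjusted p = 0.549). The ratio of 3′ to 5′ actin signal was 5.38, 5.00 and 3.29 on these irradiated IgG arrays and 3.55, 4.65 and 2.96 on the untreated ones, and its part in the ATR values was not tested. For CDC25A 204696_s_at the difference of 1.13 ± 0.46 (limma adjusted p = 0.586) contains the untreated array at background level. Arrays did not overlap in 3 of 21 probe sets, ATR 209902_at and both of CDC25A, beside 9.1% of all.

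Whether irradiation acted differently on the 2 precipitates was tested as the eIF4E effect minus the IgG effect. No member passed in limma, beside 0% of all probe sets tested, and 0 members and 403 of 11438 probe sets had an unadjusted p under 0.05. For ATR 209902_at the difference of effects was -0.78 ± 0.38 (95% interval -1.58 to 0.025, limma adjusted p = 0.999). For CDC25C 205167_s_at it was 0.36 ± 0.24 (95% interval -0.14 to 0.86, limma adjusted p = 0.999).

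**Figure D3:**
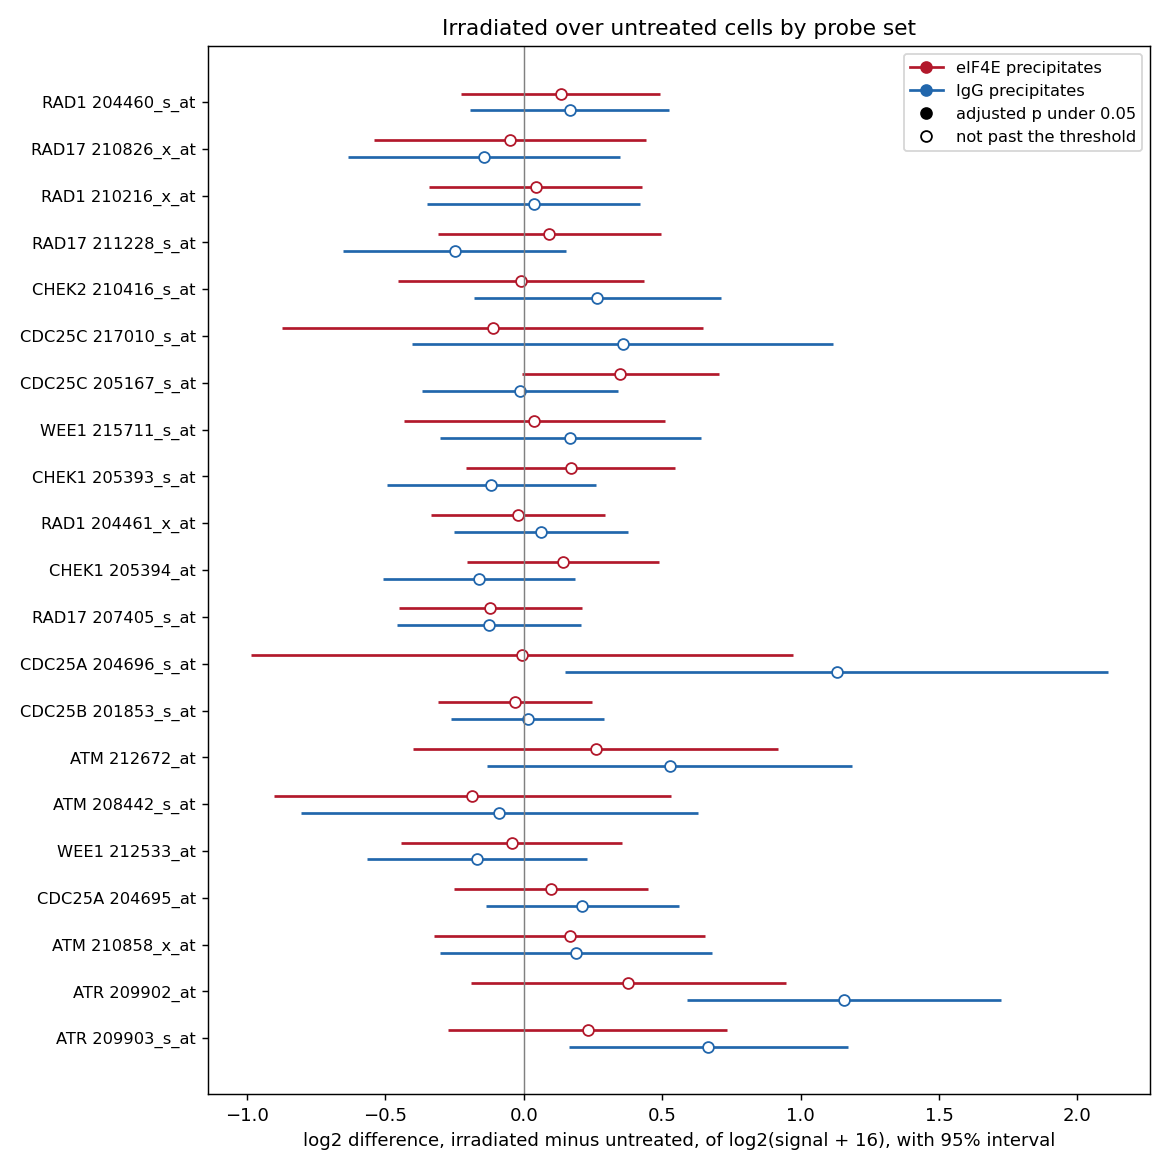
Difference irradiated minus untreated of log2(signal + 16) for the 21 tested checkpoint probe sets, in eIF4E and in IgG precipitates, with 95% intervals; open points did not pass a limma adjusted p of 0.05. All points are open, and ATR 209902_at in IgG precipitates lies at 1.16 with an interval of 0.59 to 1.72.

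The other genes of the pathway were read from a list of 44 genes by role, of which 38 had tested probe sets, 70 in all. The list was chosen with earlier results of these data known, so the counts by role are descriptive. Over both treatments 47 of 70 passed, 26 higher and 21 lower with eIF4E, or 67.1%, near the 66.4% of all probe sets tested. Of all probe sets tested 29.8% were higher and 36.6% lower, to be read beside the counts by role. Several probe sets can belong to 1 gene, so these are not counts of genes. Among subunits of the clamp and its loader, 7 of 11 probe sets of 6 genes were higher and 0 lower (median 0.51). The 4 others missed the threshold. Among sensors and mediators of damage, 4 of 23 probe sets of 13 genes were higher and 13 lower (median -0.56). Among cell cycle targets and partners, such as cyclins and cyclin-dependent kinases, 14 of 33 probe sets of 16 genes were higher and 7 lower (median 0.078). In the p53 arm 1 of 3 probe sets of 3 genes was higher and 1 lower. With the arrays centred on their medians, 8 of the clamp and loader probe sets were higher and 0 lower, and 5 of the sensors and mediators were higher and 11 lower. Of the cell cycle probe sets 16 were then higher and 5 lower, and in the p53 arm 2 were higher and 0 lower. Of all 11438 probe sets 4115 were then higher and 3420 lower.

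The largest positive differences belonged to H2AX, SFN and RPA3. H2AX, the histone variant phosphorylated at breaks, by 212525_s_at read 366 to 826 on the eIF4E arrays and 29.7 to 157 on the IgG arrays, a difference of 2.16 ± 0.27 (limma adjusted p = 2.51e-06). SFN, a 14-3-3 protein that holds cell cycle regulators in the cytoplasm, by 209260_at read 802 to 1859 on the eIF4E arrays and 195 to 447 on the IgG arrays, a difference of 1.99 ± 0.23 (limma adjusted p = 9.28e-07). RPA3, a subunit of the protein that coats single-stranded DNA, by 209507_at read 4042 to 5977 on the eIF4E arrays and 1281 to 1587 on the IgG arrays, a difference of 1.80 ± 0.11 (limma adjusted p = 8.99e-10). In each of these 3 probe sets no eIF4E array overlapped an IgG array. A second H2AX probe set, 205436_s_at, was higher too, at 0.88 ± 0.10 (limma adjusted p = 8.8e-07), and the third, 213344_s_at, missed the threshold at 0.040 ± 0.20. The other SFN probe sets missed it at -0.12 ± 0.086 and -0.20 ± 0.099 for 33322_i_at and 33323_r_at. The largest negative differences belonged to MDC1, RAD50 and MRE11, which gather at double-strand breaks. MDC1 203062_s_at read 197 to 279.6 on the eIF4E arrays and 634 to 1124 on the IgG arrays, a difference of -1.69 ± 0.14 (limma adjusted p = 1.55e-08). RAD50 208393_s_at read 149 to 215 on the eIF4E arrays and 487 to 685 on the IgG arrays, a difference of -1.57 ± 0.14 (limma adjusted p = 3.26e-08). MRE11 205395_s_at read 212 to 338 on the eIF4E arrays and 540.1 to 944 on the IgG arrays, a difference of -1.20 ± 0.15 (limma adjusted p = 2.02e-06). In these 3 probe sets all eIF4E arrays lay below all IgG arrays. The second RAD50 probe set, 209349_at, was lower too, at -1.09 ± 0.15 (limma adjusted p = 9.36e-06). The second MDC1 probe set, 203061_s_at, missed the threshold over both treatments at -0.56 ± 0.26 (limma adjusted p = 0.07). It had -1.48 ± 0.37 in irradiated cells (adjusted p = 0.00295) and 0.36 ± 0.37 in untreated cells (adjusted p = 0.439). Its 11.8 on eIF4E irradiated replicate 3 and 17.7 on IgG untreated replicate 3 lay below the background levels of those arrays, 25.2 and 40.6. No probe set of the list passed for the difference of the irradiation effects (smallest limma adjusted p = 0.999). In irradiated cells 40 of 70 probe sets of the list passed, 22 higher and 18 lower, or 57.1% beside 54.6% of all probe sets tested. In untreated cells 42 passed, 24 higher and 18 lower, or 60% beside 54.2% of all. Irradiation changed 0 of 70 past the threshold in limma within either precipitate, beside 0% of all. At an unadjusted p under 0.05 there were 0 within eIF4E, beside 152 of 11438 probe sets, and 8 within IgG, beside 850.

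**Figure D4:**
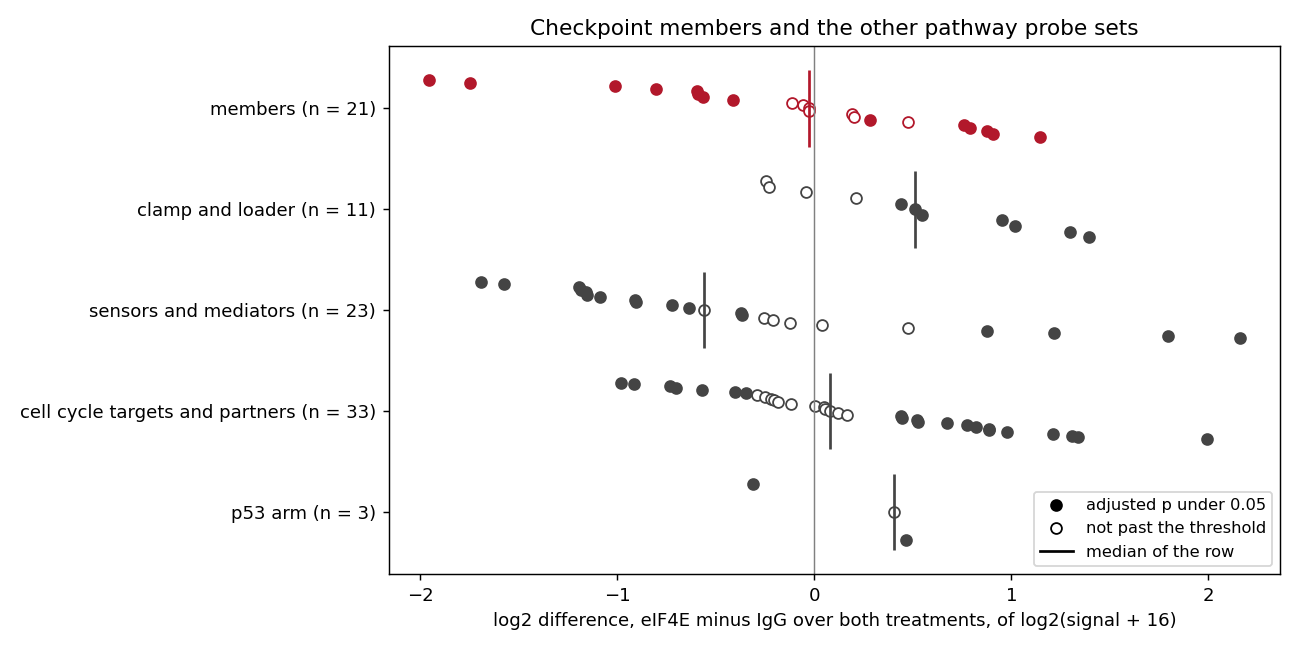
Difference eIF4E minus IgG over both treatments, of log2(signal + 16), for each tested probe set of the checkpoint members and of the other pathway genes by role; filled points have a limma adjusted p under 0.05 and lines mark medians. The clamp and loader probe sets have a median of 0.51 and none called lower, and the sensors and mediators a median of -0.56.

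Likeness to the members with the largest difference in each direction was described by Pearson's r of log2 signals over the 12 arrays, which fall into the same antibody groups. The probe sets most like ATR 209903_s_at were those of USP9X (0.99), PBRM1 (0.989) and ATRX (0.989). Those most like RAD1 204460_s_at were of GSTM3 (0.984), RNASET2 (0.981) and ECHDC3 (0.981). In the RefSeq annotation the gene span was 146 kb for ATM and 129 kb for ATR, 56.0 kb for CHEK1, 54.1 kb for CHEK2, 53.1 kb for CDC25C and 45.5 kb for RAD17, and 31.3 kb for CDC25A, 19.2 kb for CDC25B, 16.3 kb for WEE1 and 10.2 kb for RAD1. Called probe sets were lower in the 2 longest genes, ATM and ATR, and also in WEE1, CDC25B and CDC25A, which are shorter than all other members but RAD1, the shortest, where they were higher. The part of length in these values was not tested.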

How the data were processed

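Signals of 12 arrays, 1 per precipitate, were taken as deposited and not normalized again. Per the submitters' processing notes the authors made them with MAS5 (version not given in the sources used here) as intensity on a linear scale. The deposited intensity values have the same trimmed mean (2% left out at each end) on each array, so no absolute amount of RNA can be read. Groups and replicate numbers come from the labels' titles.

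Of 22277 probe sets, 62 were controls and 19064 others had 1 gene symbol in the platform annotation. RefSeq gave the current symbol of 19052 by gene identifier. The 11438 probe sets above the 40th percentile of mean log2 signal, of 7757 genes, were tested on log2(signal + 16) in limma 3.58.1 (R 4.3.3), by lmFit with a mean for each of 4 groups and eBayes with a mean-variance trend, and adjusted with Benjamini-Hochberg at 0.05. Errors of differences are SE and intervals are 95%. The number of arrays limits precision. The replicates may share cultures, in which case p-values measure only the spread between these samples. The fit was run on simulated data with independent noise and a small part of the probe sets changed. That setting differs from these arrays, where 66.4% of probe sets passed between the antibodies. It therefore does not measure how accurate the fit is here. Figures were drawn with matplotlib 3.10.9.

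The members and lists were chosen with earlier results of these data known. All member probe sets are named, 3 probe sets of the pathway list in each direction with the other tested probe sets of their genes, and the 3 genes most like 2 members. Same-numbered arrays were correlated in their deviations from group means. Irradiated and untreated eIF4E arrays reached 0.311, 0.181 and 0.123 and were judged paired, on this evidence alone. In the other 5 pairs of groups a number fell short of 0.1. The main fit used no pairing. A replicate block, tried as an alternative, was the only fit that used it. The alternatives tried were quantile normalization, median centring, pseudocounts of 1 or 64, a filter at the 60th percentile or none, a replicate block, 1 value per gene, and omission of each array and of replicate 1 of every group.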

Additional observations from a re-analysis of the deposited data

How the results depend on the processing

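Of 37 member calls between the antibodies in the 3 comparisons, 28 kept their direction and their side of the threshold under all alternatives that tested single probe sets. The fits with 1 value per gene were not among these. With a replicate block, 15 member probe sets passed over both treatments, 13 in irradiated and 12 in untreated cells. These were 71.4%, 61.9% and 57.1% of members, beside 68.5%, 57.5% and 57.2% of all probe sets tested. For irradiation in eIF4E precipitates, the pair of groups judged paired, 0 passed, beside 0% of all. The block added CDC25C 217010_s_at over both treatments (0.48, limma adjusted p = 0.0288) and in untreated cells (0.71, adjusted p = 0.0267), and ATM 212672_at in irradiated cells (-0.70, adjusted p = 0.0486), and changed no other member call. A filter at the 60th percentile left 14 member probe sets, of which 9 passed over both treatments, or 64.3% beside 77.7% of all probe sets under that filter. With 1 value per gene the counts are of 10 genes, which lowers them by construction. By the brightest probe set 8 passed over both treatments, 7 in irradiated and 6 in untreated cells, beside 70.7%, 59.5% and 58.9% of all genes tested. By the mean of probe sets 7, 7 and 6 passed, beside 67.3%, 54.7% and 54.2%. Over both treatments RAD17 missed by the brightest probe set (-0.055, limma adjusted p = 0.666). By the mean, WEE1 (-0.20, adjusted p = 0.0663) and CDC25C (0.32, adjusted p = 0.113) missed. Omitting 1 array gave 11 to 14 members over both treatments, beside 62.8% to 66% of all probe sets tested. It gave 9 to 14 in irradiated cells, beside 47.5% to 56%, and 9 to 12 in untreated cells, beside 47% to 57.1%. In the irradiation comparisons and their difference it gave 0 members, beside at most 0.0262% of all. Without replicate 1 of every group 12 passed over both treatments, 13 in irradiated and 10 in untreated cells, beside 64.7%, 51.4% and 54.5% of all. Lost there were CDC25C 205167_s_at (adjusted p = 0.0536), ATM 208442_s_at (0.254) and ATM 212672_at (0.321) over both treatments and CDC25B in untreated cells (0.0504). Gained was CDC25A 204696_s_at, over both treatments (-0.58, adjusted p = 0.031) and in irradiated cells (-0.85, adjusted p = 0.0347). With no filter, CDC25C 205167_s_at (0.056) and both these ATM probe sets (0.0771 and 0.0725) missed over both treatments, and CHEK2 in irradiated cells (0.0559). Over all probe sets tested in irradiated cells, 2786 were higher and 3460 lower, and after median centring 3542 and 2654.

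Changes of sign were seen in 4 probe sets that missed the threshold, and the cause was not tested. CHEK1 205394_at became 0.029 with quantile normalization, 0.13 with median centring and ran over -0.11 to 0.051 in the omissions of an array. CDC25A 204696_s_at became 0.052 with a pseudocount of 1, 0.00059 with quantile normalization, 0.046 with median centring and ran over -0.51 to 0.091 in the omissions. RAD1 204461_x_at became 0.14 with median centring and ran over -0.10 to 0.022 in the omissions, and RAD17 207405_s_at 0.11 and -0.13 to 0.013. Among the members, signals at or below the background level of their array were found for ATR 209902_at on 1 array, CDC25A 204696_s_at on 1 and CDC25C 216914_at on 2 eIF4E and 3 IgG arrays.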
